A study of Mus musculus with 30 samples.

Results

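RLTR rows are families of rodent long terminal repeats (LTRs). Repeat annotation names them by a number after the letters RLTR, apart from RLTRETN_Mm, which has none. They were taken from both sperm tables as every row whose name begins with RLTR, leaving out RLTR4 and RLTR6 where _ or - follows. This gave 148 of 3082 rows in the table made 46 days after the last injection and 160 of 16242 rows in the table made 24 h after it. Over both tables there were 165 RLTR rows of 16367 rows in all, and 143 RLTR rows were in both. A row pools the counts of all genomic copies of a family, and reads shared by related families are divided among them by estimation, so a row does not show which copies were the source.

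A retrovirus that enters the germ line becomes an endogenous retrovirus, with an LTR on each side of an internal region that codes for the viral proteins. Recombination between both LTRs of a copy removes the internal region and leaves a solo LTR. LTRs carry promoters and can start transcripts in germ cells, where DNA methylation, histone H3 lysine 9 methylation and piRNAs hold many of them silent. In these tables the suffix -int marks internal regions. Rows without it are called solo LTR rows here, although they also take in the LTRs of copies that still have an internal region. The 46 day table held 140 solo LTR rows and 8 -int rows, and at 24 h there were 153 and 7. RLTR13, the family number with the most rows in either table, had 22 rows at 46 days and 18 at 24 h, none of them -int.

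C57Bl/6J males received tesaglitazar (TESA), a dual agonist of the nuclear receptors PPARα and PPARγ, or vehicle (CTRL), from 3 months of age. Tesaglitazar was injected intraperitoneally at 10 µg per kg, 2 times per week for 4 weeks, and vehicle was DMSO in saline on the same schedule. Mature sperm were let swim up from the cauda epididymis and treated with somatic cell lysis buffer. Sperm taken 46 days after the last injection gave rRNA-depleted total RNA libraries (7 TESA, 7 CTRL), and sperm taken 24 h after it gave polyadenylated RNA libraries (4 TESA, 4 CTRL), so time point and library type cannot be told apart.

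The sperm label was checked against marker genes. All 14 markers of late spermatids and sperm were in both tables, led by Prm2, a protamine that packs sperm DNA, at 46 days and by Odf1, a tail fibre protein, at 24 h. Their summed level in CPM (counts set to a common library size with TMM, the trimmed mean of M values) was 413 to 993 per library at 46 days and 3879 to 12938 at 24 h. The 46 day table held 3082 rows, against 16242 rows at 24 h. A marker missing at 46 days thus does not show that its cell type was absent. None of the 15 leukocyte, 16 epididymal, 5 red blood cell or 7 smooth muscle and stromal markers was in the 46 day table. Of these, 15, 8, 4 and 7 were in the 24 h table. There the summed levels were 173 to 362 CPM for leukocytes, led by Cd74, and 586 to 2142 CPM for epididymis, led by Crisp1. For red blood cells they were 53.5 to 269.9 CPM, led by Hba-a2, and for muscle and stroma 40.8 to 174 CPM, led by Col1a1. Of 7 markers of spermatocytes and earlier germ cells, only Ddx4 was in the 46 day table, at 0 to 5.52 CPM, and 5 were in the 24 h table, at 3.95 to 17.8 CPM in sum. The part of these cells' RNA in the RLTR values was not tested. C3, C4b, Lrp1 and Abca1, genes of complement and lipid transport, summed to 2636 CPM in TESA library 12 and to 6.99 to 20.8 CPM in the other 46 day libraries. They were listed because they were high in 1 library in earlier results of these data, so this is a description and not a check. Summed RLTR rows in TESA library 12 were at 2064 CPM, within the range of the CTRL libraries.

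RLTR rows made up a small and variable share of sperm RNA counts. At 46 days their share was 0.0237%, 0.0826% and 0.439% of counts (lowest, median, highest) in TESA libraries and 0.0871%, 0.233% and 1.16% in CTRL libraries. The groups overlapped, with TESA library 2 lowest and CTRL library 14 highest. At 24 h RLTR rows held 0.0926, 0.107, 0.128 and 0.189% of counts in TESA libraries 1, 3, 5 and 7 and 0.105, 0.0975, 0.146 and 0.146% in CTRL libraries 2, 4, 6 and 8. These shares overlapped as well, and TESA library 7 was highest.

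The depth on RLTR rows differed widely between libraries. Total counts ranged from 4538102 to 13513816 at 46 days and from 15337589 to 27709990 at 24 h. The 5 most abundant rows, led by the ribosomal RNA row Rn18s-rs5, held most of the 46 day counts over the libraries together, though not in CTRL library 14. Counts outside them ranged from 158820 in TESA library 2 to 7119414 of 9617533 in CTRL library 14. RLTR rows had 2074 counts in TESA library 2 and 111259 in CTRL library 14. In TESA library 2 only 27 of 148 RLTR rows exceeded 20 counts and 5 were at 0, so single families were measured imprecisely there.

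After TMM scaling the summed RLTR level at 46 days was 654, 1961 and 2414 CPM (lowest, median, highest) in TESA libraries and 1419, 1981 and 2509.8 CPM in CTRL libraries. TMM factors, which multiply a library's total, ranged widely, from 0.098 in TESA library 2 to 8.15 in CTRL library 14. TESA library 2, with the fewest RLTR counts, thus had the highest TESA level. TESA libraries 1 and 11 lay below every CTRL library, and the other 5 TESA libraries lay within the CTRL range. Other repeat rows summed to 33579, 176990 and 468038 CPM in TESA libraries and to 22236, 90587 and 167963 CPM in CTRL libraries. RLTR rows held 0.467%, 1.10% and 2.63% of all repeat counts in TESA libraries and 0.925%, 2.16% and 6.00% in CTRL libraries. The groups overlapped in both. At 24 h summed RLTR rows were at 1129, 1128, 1181 and 1204 CPM in TESA libraries 1, 3, 5 and 7 and at 1362, 1209.7, 1372 and 1271 CPM in CTRL libraries 2, 4, 6 and 8. Every TESA library was below every CTRL library on this scale, whereas as a share of all counts the groups overlapped.

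No RLTR row passed an adjusted p of 0.05 between TESA and CTRL males 46 days after the last injection. Of 148 rows, 143 exceeded 20 counts in 6 or more libraries, which admitted them to the test, and RLTR13F, RLTR18-int, RLTR19B, RLTR43C and RLTR9B did not. The edgeR quasi-likelihood test with Benjamini-Hochberg adjustment called 0 of these 143 rows and 0 of 2866 rows in the whole table (0%). At an unadjusted p under 0.05, 6 RLTR rows (4.20%) were lower in TESA, against 1.05% of all rows and 1.42% of other repeat rows, and 0 were higher, against 4.26% of all rows, whereas with TMM over repeat rows 1 was lower and 2 were higher, against 0.279% and 8.51% of all rows. The exact test of edgeR called 0 RLTR rows, while it called 14 of 2866 rows in all (0.488%), and DESeq2 called 0 of both (0%). The exact test had, at an unadjusted p under 0.05, 5 RLTR rows lower in TESA (3.50%, against 1.4% of all rows) and DESeq2 9 (6.29%, against 1.36%), and neither had RLTR rows that were higher, against 5.23% and 3.35% of all rows. The count of 6 rested on single libraries. It was 1 without TESA library 1 or 11 or without CTRL library 7, 8, 9 or 13, where 0.659% (without CTRL library 7) to 0.906% (without TESA library 11) of all rows were lower, and 3 without CTRL library 10, against 0.832% of all rows. It was 15, 13 and 14 without TESA library 4, 5 or 12, against 2.55%, 1.74% and 2.26% of all rows, and 11 without CTRL library 14, against 1.43%. Standard errors of the RLTR log2 fold changes ranged from 0.20 to 0.48, with a median of 0.32.

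Fitted log2 fold changes of RLTR rows at 46 days had a median of -0.32, and 138 of 143 were below 0, whereas 86 of 143 were with TMM over repeat rows (60.1%, against 13.0% of all rows) and all 143 with library totals (against 98.3% of all rows). The median was -0.23 over 424 other repeat rows, of which 393 were below 0, and -0.03 over all 2866 rows, of which 1548 were. RLTR10C, RLTR17D_Mm, RLTR31D_MM, RLTR44E and RLTR6B_Mm had values above 0, of which RLTR31D_MM was highest at 0.34, though at -1.41 with library totals. The RLTR median depended on the scaling. It was -1.77 with library totals, where the median of all rows was -1.09, and -0.03 with TMM over repeat rows, where the median of all rows was 0.49. Relative to the median of all rows it was -0.29 with TMM over all rows, -0.69 with library totals and -0.52 with TMM over repeat rows. Relative to other repeat rows it was -0.08, -0.04 and -0.07 in the same order. Without TESA library 1 the median was -0.17, without TESA library 11 it was -0.19, and without TESA library 4 it was -0.48. Relative to the median of all rows these were -0.15, -0.16 and -0.43 in the same order.

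RLTR13A1 had the smallest p of the RLTR rows at 46 days. It was at 0, 0.703 and 2.23 CPM (lowest, median, highest) in TESA libraries and at 1.06, 2.71 and 3.29 CPM in CTRL libraries. Of 7 TESA libraries 4 lay below every CTRL library, and the other 3 overlapped with CTRL. Its log2 fold change was -1.09 (SE 0.39), with an adjusted p of 0.754 in the edgeR quasi-likelihood test, on 0 to 83 counts per library.

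RLTR13B3 was at 1.12, 2.44 and 4.74 CPM in TESA libraries and at 2.00, 4.62 and 7.64 CPM in CTRL libraries. RLTR53_Mm was at 1.12, 2.44 and 3.49 CPM in TESA libraries and at 1.56, 3.71 and 5.80 CPM in CTRL libraries. The groups overlapped for each, and TESA library 1 was lowest in both, as CTRL library 14 was within CTRL. RLTR13G was at 1.67, 4.46 and 8.15 CPM in TESA libraries and at 3.23, 6.37 and 9.26 CPM in CTRL libraries. RLTR19 was at 1.67, 4.46 and 9.31 CPM in TESA libraries and at 4.27, 6.60 and 8.96 CPM in CTRL libraries. For RLTR13G and RLTR19 the highest TESA value came from library 2, on 7 and 8 counts, and the groups overlapped. Log2 fold changes of RLTR13B3, RLTR53_Mm, RLTR13G and RLTR19 were -0.88, -0.74, -0.75 and -0.75, and each adjusted p was at least 0.857 in the edgeR quasi-likelihood test. RLTR17C_Mm, the remaining row at an unadjusted p under 0.05 and named after its values were seen, had a log2 fold change of -0.82 (SE 0.38).

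RLTR9A3 and RLTR26D_MM are LTR families shown in a figure of the study. RLTR9A3 was at 1.16, 5.31 and 6.72 CPM in TESA libraries and at 3.72, 6.72 and 10.5 CPM in CTRL libraries at 46 days, with a log2 fold change of -0.71 (SE 0.34). RLTR26D_MM was at 0.112, 1.91 and 3.16 CPM in TESA libraries and at 1.29, 2.54 and 4.13 CPM in CTRL libraries, with a log2 fold change of -0.82 (SE 0.47). The groups overlapped in each, and neither passed the edgeR quasi-likelihood test (adjusted p 0.935 and 0.999).

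**Figure D1:**
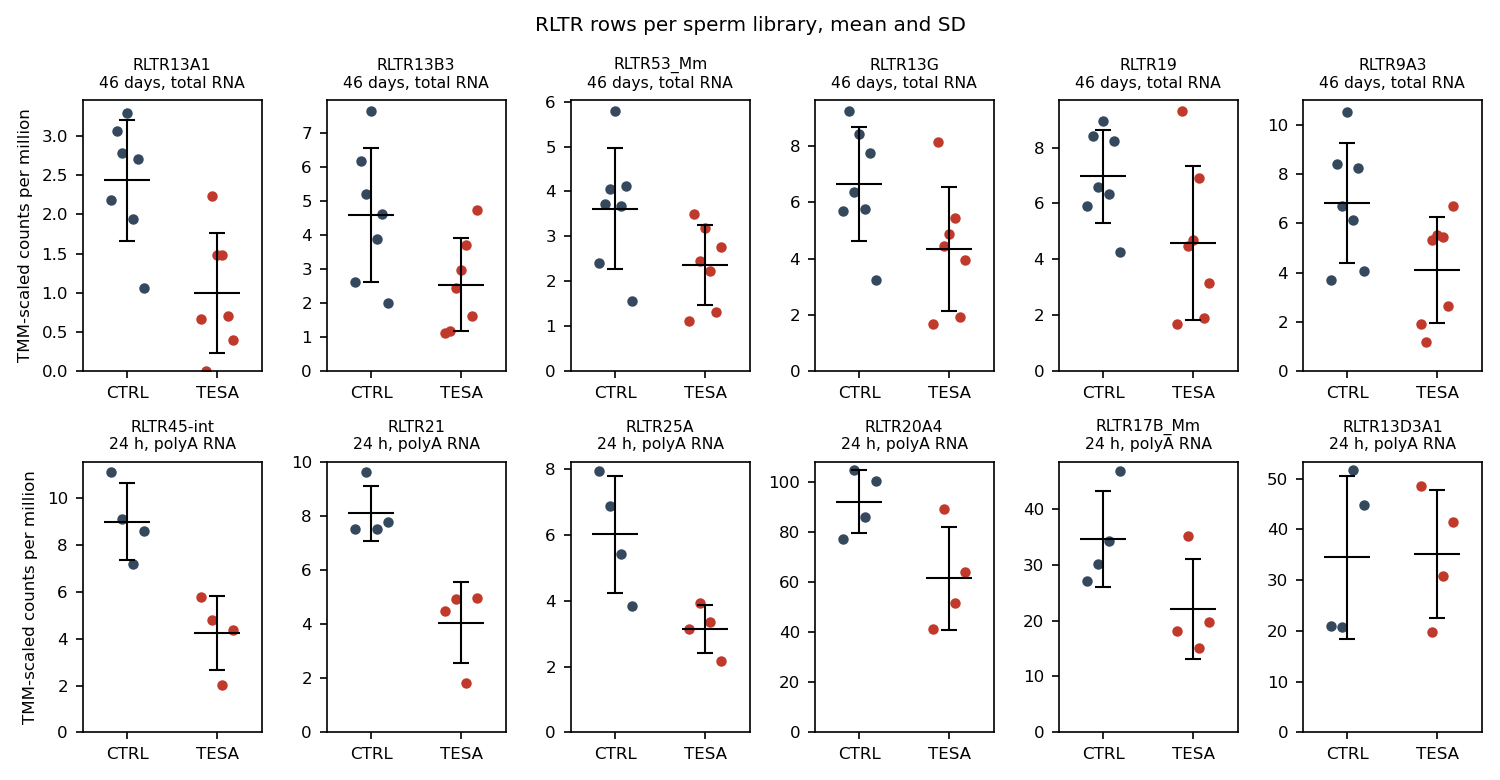
TMM-scaled CPM of 12 RLTR rows in each sperm library (points), with the mean and SD (error bar) of CTRL and TESA groups at 46 days (7 and 7 libraries, upper panels) and 24 h (4 and 4 libraries, lower panels). The groups overlap in every upper panel, and in the lower panels RLTR45-int and RLTR21 have every TESA library below every CTRL library.

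Among RLTR13 rows, 21 of 22 were tested at 46 days and all 21 had log2 fold changes below 0, from -1.09 (RLTR13A1) to -0.09 (RLTR13C3, 0.13 with TMM over repeat rows), with a median of -0.38. Over the 122 other RLTR rows tested the median was -0.31, with 117 below 0. Without TESA library 12 the medians of RLTR13 and of the others were -0.58 and -0.40, and without TESA library 4 they were -0.50 and -0.48. Without TESA library 1 they were -0.23 and -0.14, and without TESA library 11 they were -0.25 and -0.18. With library totals the order turned, with medians of -1.73 for RLTR13 and -1.78 for the others. Unadjusted p was under 0.05, with lower values in TESA, in 3 of the 21 RLTR13 rows and in 3 of the 122 others, against 1.05% of all rows, and these 6 fell to 1 when any of 6 single libraries was left out, as given above. With TMM over repeat rows the RLTR13 median was -0.05, and RLTR13A, RLTR13A2, RLTR13A3, RLTR13B2, RLTR13C3, RLTR13D3 and RLTR13D4 had values above 0.

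RLTR13 subfamilies carry letters, and these ranged widely. RLTR13B4 and RLTR13D3A, at -0.75 and -0.69, were next to RLTR13A1, RLTR13B3 and RLTR13G at the low end. RLTR13A, RLTR13A2, RLTR13A3 and RLTR13B2 were at -0.20, -0.20, -0.17 and -0.36, all above 0 with TMM over repeat rows, and RLTR13B1 was at -0.25. RLTR13C1 and RLTR13C2 were at -0.41 and -0.32. In the D group RLTR13D1, RLTR13D2, RLTR13D5 and RLTR13D6 were at -0.47, -0.52, -0.28 and -0.38, and RLTR13D3 and RLTR13D4 at -0.24 and -0.24, which were above 0 with TMM over repeat rows. RLTR13E was at -0.40. No difference between subfamilies was tested. RLTR13F, which was not tested, was at 0, 0.742 and 3.56 CPM in TESA and at 0.893, 1.58 and 2.89 CPM in CTRL libraries.

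RLTR13D3A1 at 46 days was at 1.45, 3.19 and 15.4 CPM in TESA libraries and at 5.10, 5.68 and 8.72 CPM in CTRL libraries. Of 7 TESA libraries 5 lay below every CTRL library, library 2 lay within the CTRL range, and library 12 lay above it. Its log2 fold change was -0.41 (SE 0.43), and -1.11 without TESA library 12. RLTR13D3 was highest in the same library, at 19.0 CPM, and its log2 fold change was -0.80 without it. RLTR13 rows together held 5.30%, 6.20% and 8.35% of RLTR counts in TESA libraries and 5.60%, 7.23% and 8.02% in CTRL libraries. These shares overlapped, and TESA library 12 was highest.

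Internal regions and LTRs were set side by side at 46 days. All 7 tested -int rows had log2 fold changes below 0, with a median of -0.25, beside -0.32 over 136 solo LTR rows, whereas with TMM over repeat rows these medians were 0.03 and -0.03. The -int median was -0.39 and -0.43 without TESA library 2 or 12, and -0.10 without TESA library 1 or 11. The order of -int and solo LTR medians turned with library totals (-1.80 and -1.77), without TESA library 12 (-0.43 and -0.42) and without libraries 2 and 12 (-0.59 and -0.52). RLTR10-int, the -int row with the highest CPM, was at 22.5, 60.5 and 96.0 CPM in TESA libraries and at 48.2, 82.2 and 101 CPM in CTRL libraries. The groups overlapped, and TESA libraries 1 and 11 lay below all CTRL libraries. Its log2 fold change was -0.43 (SE 0.30), and those of RLTR1B-int, RLTR45-int, RLTR14-int and RLTR44-int were -0.16, -0.21, -0.25 and -0.35, of which the first 3 were above 0 with TMM over repeat rows. Counts on -int rows were 7.01% to 9.08% of RLTR counts in TESA and 7.49% to 9.35% in CTRL libraries.

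The ratio of counts on an internal region to counts on LTRs of the same family, formed within a library, can be compared between libraries without row lengths where the same LTR rows are counted. At 46 days RLTR10-int had 0.496 ± 0.131 counts per RLTR10 LTR count in TESA and 0.600 ± 0.0770 in CTRL libraries (SD, n = 7 each). RLTR1B-int had 2.67 ± 0.639 per RLTR1B count in TESA and 2.44 ± 0.425 in CTRL libraries. RLTR14-int had 0.864 ± 0.208 and 0.864 ± 0.170 per RLTR14 count, and RLTR44-int had 0.978 ± 0.238 and 1.01 ± 0.148 per RLTR44 LTR count. RLTR19-int had 2.12 ± 0.783 per RLTR19 LTR count in TESA and 1.53 ± 0.124 in CTRL libraries. TESA libraries 1, 3, 4, 11 and 12 lay above every CTRL library for RLTR19-int, on 103 or fewer RLTR19 LTR counts each, and TESA library 5 lay below. TESA libraries 1, 2, 11 and 12 lay below every CTRL library for RLTR10-int. The other TESA libraries lay within the CTRL range for both. The groups thus overlapped in every family given here, and no difference in ratio was tested.

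The solo LTR rows with the highest CPM at 46 days were RLTR31D_MM, RLTR51A_Mm, RLTR17B_Mm, RLTR20A4 and RLTR10. Rows differ in the length and number of their copies, which were not used here, so their levels were compared between libraries and not with each other. RLTR31D_MM was at 47.9, 98.4 and 270.1 CPM in TESA libraries and at 68.3, 89.7 and 117 CPM in CTRL libraries. Its highest value came from TESA library 2, the library with the fewest RLTR counts, and its log2 fold change of 0.34 was -0.01 without that library and -1.41 with library totals. RLTR51A_Mm was at 35.3, 71.0 and 82.4 CPM in TESA and at 51.0, 65.4 and 102 CPM in CTRL libraries. RLTR17B_Mm was at 18.2, 71.0 and 117 CPM in TESA and at 56.2, 70.2 and 91.2 CPM in CTRL libraries. TESA library 1 was lowest in both, and the groups overlapped. RLTR20A4 was at 26.4, 62.9 and 122 CPM in TESA and at 46.7, 60.1 and 83.9 CPM in CTRL libraries. RLTR10 was at 25.5, 62.9 and 84.96 CPM in TESA and at 45.7, 65.5 and 85.4 CPM in CTRL libraries. RLTR17B_Mm and RLTR20A4 were highest in TESA library 12. Log2 fold changes of RLTR51A_Mm, RLTR17B_Mm, RLTR20A4 and RLTR10 were -0.08, -0.25, -0.0026 and -0.21, all within 1 SE of 0, and all but RLTR17B_Mm were above 0 with TMM over repeat rows.

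Other families at 46 days are given by number, with TMM over all rows, by which 54.0% of all rows were below 0. All 15 RLTR20 rows had values below 0 (-0.42 to -0.0026), as did the 8 tested RLTR9 rows (-0.71 to -0.0018), the 8 RLTR12 rows (-0.69 to -0.14) and the 6 RLTR1 rows (-0.68 to -0.16). Of 10 RLTR10 rows 9 were below 0 (median -0.35), and of 8 RLTR31 rows 7 were (median -0.13). RLTR26, with 5 rows, ranged from -0.82 to -0.35, and RLTR30, with 5 rows, from -0.58 to -0.13.

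No RLTR row passed the adjusted threshold 24 h after the last injection either. Of 160 rows, 142 exceeded 20 counts in 4 or more libraries and so entered the test. The edgeR quasi-likelihood test with Benjamini-Hochberg adjustment called 0 of 142 RLTR rows and 0 of 13752 rows in the whole table (0%). At an unadjusted p under 0.05, 3 RLTR rows (2.11%) were lower in TESA, against 1.75% of all rows and 10.0% of other repeat rows, and 0 were higher, against 0.953% of all rows. The exact test of edgeR and DESeq2 called 0 RLTR rows and 0 rows in all (0%). The exact test had, at an unadjusted p under 0.05, 2 RLTR rows lower in TESA (1.41%, against 1.78% of all rows) and DESeq2 4 (2.82%, against 2.2%), and neither had RLTR rows that were higher, against 0.960% and 1.38% of all rows. The count of 3 was 9 without TESA library 3 (6.00%, against 2.53% of all rows) and 0 with library totals or with TMM over repeat rows, against 0.225% of all rows lower with either. Standard errors ranged from 0.21 to 1.42, with a median of 0.56, so single families were measured less precisely than at 46 days.

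The median log2 fold change of RLTR rows at 24 h was -0.26, beside -0.33 over 400 other repeat rows and -0.02 over all rows, but it was -0.03 with library totals and 0.05 with TMM over repeat rows. Of 142 RLTR rows 104 (73.2%) were below 0, against 52.2% of all rows and 81.5% of other repeat rows, whereas 75 were below 0 with library totals and 67 with TMM over repeat rows, against 34.7% and 28.4% of all rows. Without TESA library 7 the RLTR median was -0.39. Medians over all rows were 0.19 and 0.29 with library totals and with TMM over repeat rows. Relative to all rows the RLTR median was -0.24 with TMM over all rows, -0.22 with library totals and -0.25 with TMM over repeat rows. Relative to other repeat rows it was 0.07, 0.06 and 0.06, but -0.02, -0.04 and -0.03 without TESA library 1, 5 or 7 and -0.07 without CTRL library 4. Single values ranged from -1.62 to 0.90, beside -1.09 to 0.34 at 46 days.

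RLTR45-int had the smallest p at 24 h. It was at 5.80, 4.80, 2.02 and 4.38 CPM in TESA libraries 1, 3, 5 and 7 and at 11.1, 9.14, 7.18 and 8.62 CPM in CTRL libraries 2, 4, 6 and 8. Every TESA library was below every CTRL library. Its log2 fold change was -1.08 (SE 0.38), with an adjusted p of 1.000 in the edgeR quasi-likelihood test. RLTR45, the LTR of the same family, was at 12.3, 9.60, 9.12 and 19.0 CPM in TESA and at 14.0, 8.98, 14.8 and 13.6 CPM in CTRL libraries. Its groups overlapped, with a log2 fold change of -0.04 (SE 0.31). RLTR45-int counts per RLTR45 count were 0.470, 0.222 and 0.230 in TESA libraries 1, 5 and 7 and 0.792, 1.02, 0.485 and 0.633 in CTRL libraries. On this ratio TESA library 3 lay just above CTRL library 6, and the other TESA libraries lay below all CTRL libraries. At 46 days the ratio was 1.13 ± 0.406 in TESA and 1.22 ± 0.263 in CTRL libraries (SD, n = 7 each).

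RLTR21 was at 4.50, 4.93, 1.82 and 4.96 CPM in TESA libraries 1, 3, 5 and 7 and at 7.52, 9.62, 7.52 and 7.79 CPM in CTRL libraries 2, 4, 6 and 8. The groups did not overlap with TMM but did with library totals, and its log2 fold change was -0.998 (SE 0.39). RLTR25A was at 3.15, 3.94, 3.35 and 2.18 CPM in TESA libraries and at 7.94, 6.87, 5.43 and 3.85 CPM in CTRL libraries. TESA library 3 was above CTRL library 8, which was the only overlap and was absent with library totals, and the log2 fold change was -0.93 (SE 0.40). Neither passed the edgeR quasi-likelihood test (adjusted p 1.000 each).

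RLTR20A4 was at 41.2, 89.1, 51.7 and 63.9 CPM in TESA libraries and at 77.2, 105, 86.0 and 100.3 CPM in CTRL libraries. RLTR17B_Mm was at 18.1, 35.1, 15.2 and 19.7 CPM in TESA libraries and at 27.2, 30.1, 34.3 and 46.7 CPM in CTRL libraries. In both, TESA library 3 lay within the CTRL range and the other TESA libraries lay below it. Log2 fold changes were -0.58 (SE 0.26) and -0.65 (SE 0.30), each with an adjusted p of 1.000 in the edgeR quasi-likelihood test.

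RLTR12D, RLTR20C2_MM, RLTR21, RLTR22_Mus, RLTR45-int and RLTR48B, 6 of 142 tested RLTR rows (4.23%), had every TESA library below every CTRL library on the TMM scale, against 1.95% of all rows and 9.75% of other repeat rows. Scaled by library totals it was RLTR22_Mus, RLTR45-int and RLTR25A, 3 of 142, against 0.574% of all rows. RLTR12D, RLTR20C2_MM, RLTR22_Mus and RLTR48B were named after their values were seen. RLTR20C2_MM was at 13.3, 15.5, 9.81 and 12.0 CPM in TESA and at 16.2, 18.8, 15.8 and 19.5 CPM in CTRL libraries, and RLTR22_Mus at 2.28, 0.562, 0 and 1.61 CPM in TESA and at 3.59, 3.40, 2.57 and 4.01 CPM in CTRL libraries. No RLTR row and no other repeat row had every TESA library above every CTRL library, against 1.32% of all rows. At 46 days no row of the 2866 tested had every TESA library below every CTRL library (0%).

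RLTR9A3 at 24 h was at 0.123, 2.25, 1.33 and 0.688 CPM in TESA libraries and at 1.504, 1.78, 3.49 and 2.39 CPM in CTRL libraries. RLTR26D_MM was at 0.987, 2.29, 0 and 0.619 CPM in TESA libraries and at 3.18, 0.404, 0.825 and 1.82 CPM in CTRL libraries. The groups overlapped in each, on 72 counts or fewer per library, and log2 fold changes were -1.06 (SE 0.83) and -0.67 (SE 1.20). RLTR9A3 was at -1.67 without TESA library 3 and -0.68 without TESA library 1. RLTR26D_MM was at -1.53 without TESA library 3, -0.24 without TESA library 5 and -0.05 without CTRL library 2.

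RLTR13 rows were sparse at 24 h apart from RLTR13D3A1. Of 18 rows 13 were tested, and 12 of these had log2 fold changes below 0, with a median of -0.48, beside -0.23 over the 129 other RLTR rows tested, which were at 0.0023 with library totals and 0.09 with TMM over repeat rows. That RLTR13 median was -0.80 without CTRL library 2, -0.73 without TESA library 1 and -0.75 with no count filter. With TMM over repeat rows the RLTR13 median was -0.16, and RLTR13B2, RLTR13D1, RLTR13D3A1 and RLTR13G were above 0, of which RLTR13D3A1 was so with TMM over all rows too. None of the 13 had an unadjusted p under 0.05, against 1.75% of all rows lower and 0.953% higher. RLTR13C3, RLTR13E, RLTR13D5 and RLTR13D3 had the lowest values, of -1.001, -0.96, -0.92 and -0.80, with standard errors from 0.66 to 1.11. RLTR13A2, RLTR13B1, RLTR13C2, RLTR13D6 and RLTR13B4 were at -0.71, -0.58, -0.48, -0.47 and -0.43, and RLTR13D1, RLTR13G and RLTR13B2 at -0.29, -0.22 and -0.20, all 3 above 0 with TMM over repeat rows. Leaving out 1 library at a time, RLTR13D6 ranged from -0.74 to 0.34, RLTR13B4 from -1.03 to -0.04 and RLTR13B1 from -1.14 to -0.07. RLTR13D1, RLTR13G and RLTR13B2 changed sign among these fits as well. RLTR13A, RLTR13B3, RLTR13C1, RLTR13D2 and RLTR13D4 had too few counts to be tested and stayed at 3.65 CPM or below in every library.

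RLTR13D3A1 at 24 h was at 48.5, 19.8, 30.9 and 41.5 CPM in TESA libraries 1, 3, 5 and 7 and at 20.9, 20.7, 51.7 and 44.8 CPM in CTRL libraries 2, 4, 6 and 8. Both groups held low and high libraries, and the log2 fold change was 0.02 (SE 0.38). RLTR13 rows together held 6.19, 3.33, 3.46 and 5.13% of RLTR counts in TESA libraries and 3.65, 3.54, 5.97 and 6.28% in CTRL libraries, and these shares overlapped.

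Tested -int rows at 24 h had a median log2 fold change of -0.44 over 7 rows, with 5 below 0, beside -0.25 over 135 solo LTR rows, and with TMM over repeat rows these medians were -0.11 and 0.05. RLTR10-int was at 23.6, 47.1, 30.9 and 25.4 CPM in TESA libraries and at 27.2, 39.2, 29.8 and 23.1 CPM in CTRL libraries. RLTR1B-int was at 18.8, 24.4, 16.7 and 16.5 CPM in TESA libraries and at 24.98, 22.6, 12.6 and 15.1 CPM in CTRL libraries. The groups overlapped in both, and log2 fold changes were 0.09 and 0.02. RLTR19-int and RLTR14-int were at -0.43 (SE 0.34) and -0.74 (SE 0.74), with overlapping groups. Without TESA library 5 they were at -0.24 and -0.45, and RLTR14-int was at -1.46 without TESA library 3 and -0.27 without CTRL library 4. Counts on -int rows were 5.54, 8.30, 5.14 and 5.10% of RLTR counts in TESA libraries and 5.77, 7.88, 5.18 and 5.73% in CTRL libraries. RLTR10-int had 0.303 ± 0.159 counts per RLTR10 LTR count in TESA and 0.290 ± 0.125 in CTRL libraries (SD, n = 4 each). This ratio was 0.772 ± 0.179 and 0.772 ± 0.117 for RLTR19-int, 0.398 ± 0.287 and 0.576 ± 0.477 for RLTR14-int, and 0.290 ± 0.114 and 0.444 ± 0.193 for RLTR44-int. RLTR1B-int had 6.98 ± 10.4 in TESA and 2.20 ± 1.08 in CTRL libraries, with 22.5 in TESA library 5 on 15 RLTR1B counts. The groups overlapped in each of these families, and no difference in ratio was tested.

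The solo LTR rows with the highest CPM at 24 h were RLTR31D_MM, RLTR3_Mm, RLTR11A, RLTR20A4 and RLTR10C. RLTR31D_MM was at 106, 102, 89.8 and 116 CPM in TESA libraries and at 121, 89.6, 106 and 74.7 CPM in CTRL libraries. RLTR3_Mm, a row of the 24 h table only, was at 108, 91.6, 103 and 113 CPM in TESA libraries and at 40.4, 86.7, 110.4 and 109.7 CPM in CTRL libraries. CTRL library 2 was low for RLTR3_Mm and the groups overlapped. RLTR11A was at 93.8, 55.0, 132 and 86.9 CPM in TESA libraries and at 85.2, 71.2, 103 and 77.9 CPM in CTRL libraries. RLTR10C was at 54.8, 32.3, 95.0 and 52.1 CPM in TESA libraries and at 95.2, 39.1, 57.4 and 41.4 CPM in CTRL libraries. The groups overlapped in all 4 families, and log2 fold changes of RLTR31D_MM, RLTR3_Mm, RLTR11A and RLTR10C were 0.08, 0.26, 0.12 and 0.0081.

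By number, and with TMM over all rows, all 6 RLTR19 rows (-0.86 to -0.05), all 5 RLTR26 rows (-0.95 to -0.08) and 11 of 12 RLTR9 rows were below 0 at 24 h, against 52.2% of all rows. RLTR20 rows were divided, with 8 of 13 below 0 and values from -1.62 to 0.72. RLTR10 rows had 4 of 10 below 0, and RLTR31 rows 2 of 7. With TMM over repeat rows 67 of 142 RLTR rows were below 0, and RLTR9D was at 0.29 (0.17 with library totals).

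**Figure D2:**
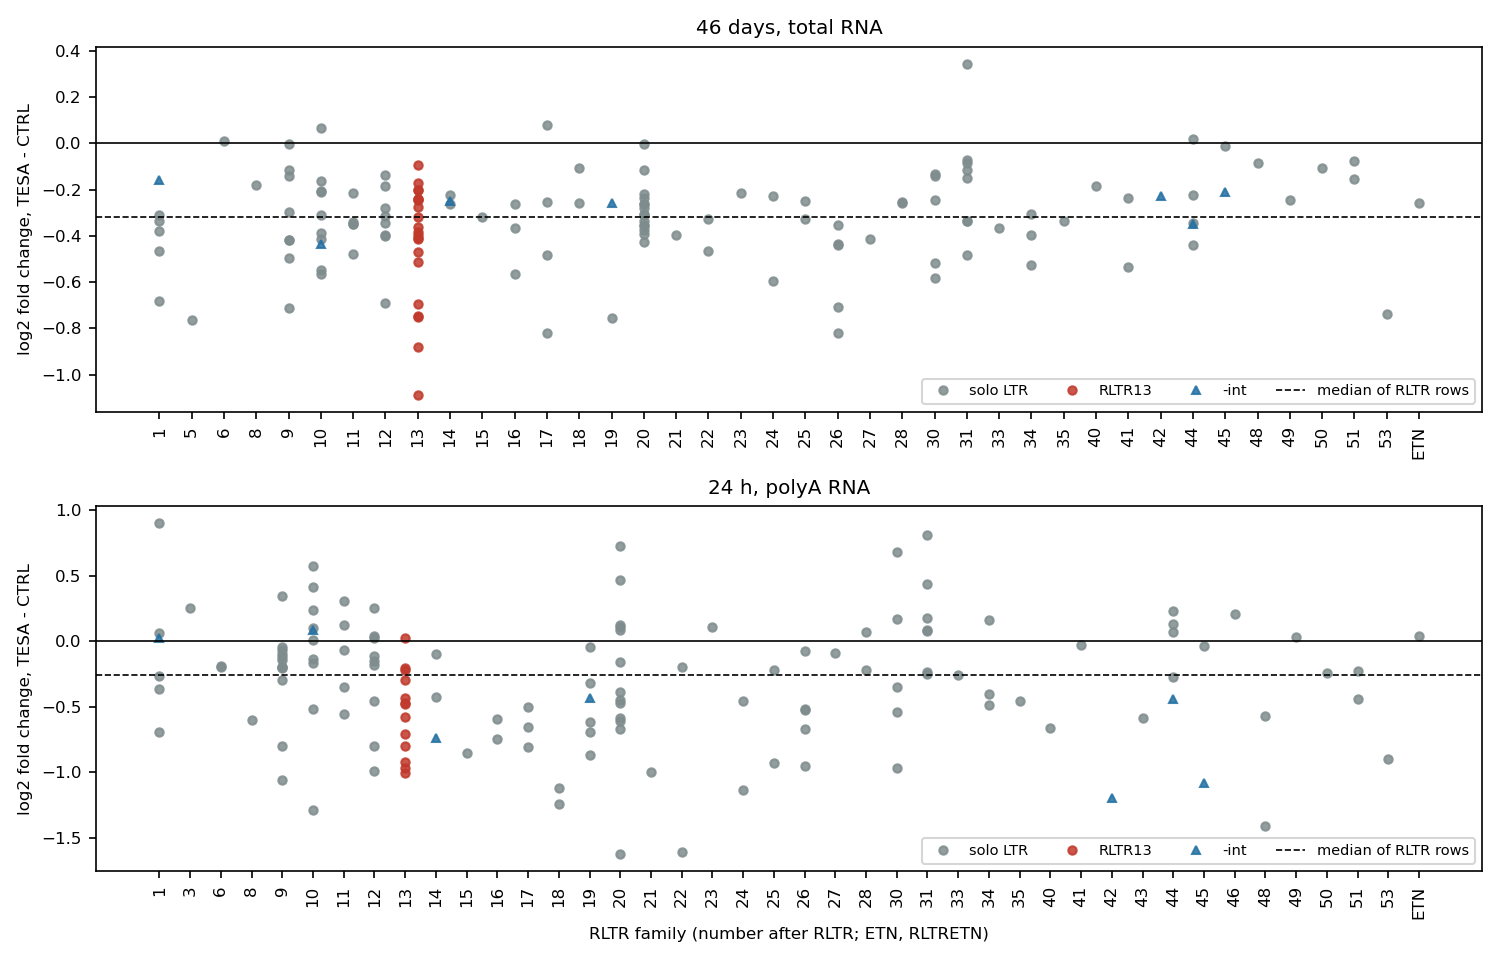
Fitted log2 fold change (TESA minus CTRL) of each tested RLTR row, by family (the number after RLTR, where the row has one), at 46 days (143 rows) and 24 h (142 rows), with solo LTR, RLTR13 and -int rows in separate colours and the median of RLTR rows as a dashed line. Medians are -0.32 at 46 days and -0.26 at 24 h with TMM over all rows, and were -0.03 and 0.05 with TMM over repeat rows.

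Whether the TESA to CTRL difference of RLTR rows itself differed between 46 days and 24 h was tested in 1 model over all 22 libraries. TMM scaling was redone for it over the rows in both tables, so its values are not the differences of the separately fitted log2 fold changes. The edgeR quasi-likelihood test with Benjamini-Hochberg adjustment called 0 of 126 RLTR rows tested and 0 of 2680 rows in all (0%). At an unadjusted p under 0.05, 4 RLTR rows (3.17%) had a lower value at 46 days, against 1.46% of all rows and 3.41% of other repeat rows, and 0 had a higher one, against 3.28% of all rows, whereas with TMM over repeat rows 3 were lower and 2 higher, against 0.709% and 3.36% of all rows. The count of 4 was 2 with DESeq2 size factors (1.59%, against 1.38% of all rows). It was 11 without 46 day TESA library 4 (8.66%, against 1.98% of all rows). It was 2 without 46 day TESA library 1 or 11 or without 46 day CTRL library 7, 8, 9 or 13, where 1.08% (without CTRL library 9) to 1.34% (without TESA library 1) of all rows were lower. The median difference over RLTR rows was -0.25, beside -0.13 over other repeat rows and 0.09 over all rows, and with TMM over repeat rows it was -0.05, beside 0.40 over all rows. With library totals it was -1.69, beside -1.05 over all rows. Without 46 day TESA library 4 the RLTR median was -0.37, without 46 day TESA library 1 or 11 it was -0.12 and -0.12, and without 24 h TESA library 7 it was -0.14. It was above that of other repeat rows, by 0.03, without 24 h CTRL library 4.

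RLTR20B3, RLTR10B, RLTR11B, RLTR9D and RLTR1D2_MM had the smallest p for this difference. RLTR20B3 was at 5.57, 14.1 and 23.2 CPM in TESA and at 11.8, 17.1 and 20.03 CPM in CTRL libraries at 46 days (lowest, median, highest). At 24 h RLTR20B3 was at 17.1, 5.62, 4.63 and 4.15 CPM in TESA and at 8.11, 5.58, 2.67 and 2.78 CPM in CTRL libraries. The groups overlapped at both times, and at 24 h TESA library 1 alone lay above all CTRL libraries. RLTR10B was at 0.781, 3.16 and 5.74 CPM in TESA and at 3.20, 4.48 and 5.54 CPM in CTRL libraries at 46 days. At 24 h RLTR10B was at 4.50, 3.33, 11.1 and 6.15 CPM in TESA and at 2.42, 2.91, 7.03 and 4.41 CPM in CTRL libraries. The groups overlapped at both times here too. Differences of the log2 fold changes in the joint model were -1.38 (SE 0.53) for RLTR20B3, -1.34 (SE 0.55) for RLTR10B and -0.92 (SE 0.43) for RLTR11B. The separate fits at 46 days and 24 h gave -0.42 and 0.72 for RLTR20B3, -0.55 and 0.58 for RLTR10B, and -0.35 and 0.31 for RLTR11B. Leaving out 1 library at a time, the 24 h log2 fold change ranged from 0.02 to 1.11 for RLTR20B3, from 0.17 to 0.94 for RLTR10B and from 0.05 to 0.53 for RLTR11B. RLTR9D and RLTR1D2_MM had differences of -0.67 (SE 0.32) and -1.73 (SE 0.88). Each adjusted p was at least 0.876 in the edgeR quasi-likelihood test.

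Within CTRL males the makeup of RLTR counts was set side by side between the 46 day and 24 h libraries, which differ in library type as well as time. Each row's share of the counts on the 143 RLTR rows in both tables is a description only, since the tables were scaled separately. Ranges over 7 CTRL libraries at 46 days and 4 at 24 h did not overlap for 56 rows with a lower share at 24 h and 18 with a higher one, and they overlapped for 69. Shares without overlap were thus found for 51.7% of RLTR rows, against 39.5% of 418 other repeat rows and 16.7% of 2957 rows in both tables, each taken as a share of the counts on its own set. Shares were lower at 24 h for 39.2% of RLTR rows, 37.1% of other repeat rows and 10.6% of all rows, and higher for 12.6%, 2.39% and 6.15%. RLTR13D3A1 had 0.325% ± 0.0410 of RLTR counts at 46 days and 2.97% ± 1.38 at 24 h (SD). Of the 18 RLTR13 rows in both tables it was the 1 with a higher share and no overlap, while 11 had lower shares without overlap and 6 overlapped. RLTR13B1, for example, had 0.640% ± 0.108 at 46 days and 0.153% ± 0.113 at 24 h, and RLTR13D5 had 0.529% ± 0.0598 and 0.126% ± 0.0729. Of 9 RLTR9 rows 6 had higher shares at 24 h without overlap, 1 (RLTR9A3B) had a lower one and 2 overlapped, and the largest rises were those of RLTR9B at 0.0792% and 0.930%, RLTR9D2 at 0.117% and 0.974%, and RLTR9D at 0.401% and 2.29%. RLTR20A2 and RLTR16 had lower shares at 24 h, the former at 0.331% and 0.0390% and the latter at 1.66% and 0.369%. RLTR16, RLTR20A2, RLTR9A3B, RLTR9B and RLTR9D2 were named after their values were seen.

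**Figure D3:**
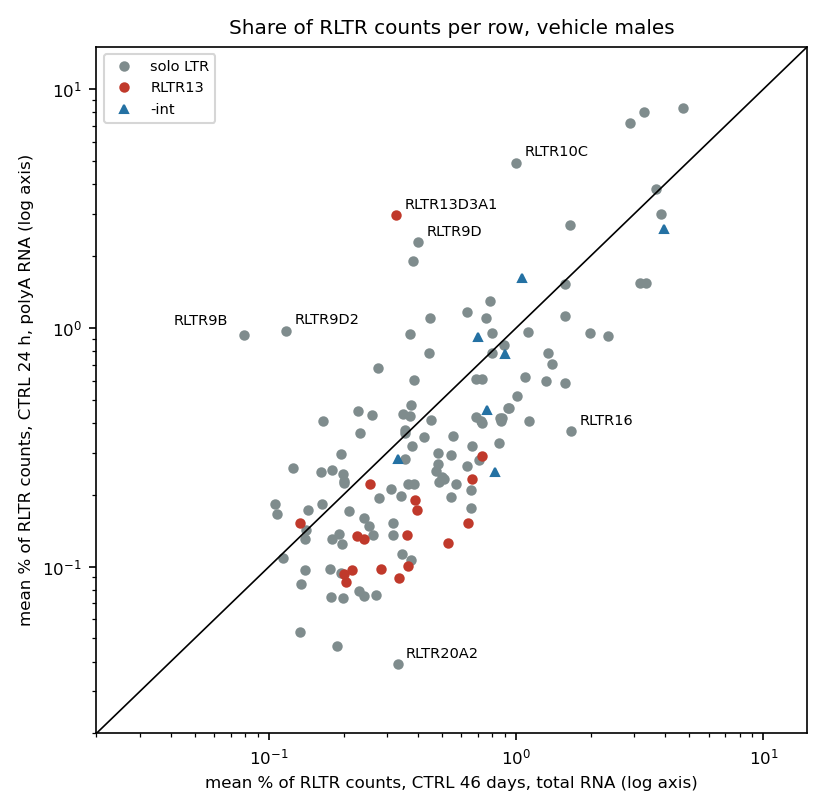
Mean share of RLTR counts (%) of each of 143 RLTR rows in CTRL sperm at 46 days (7 libraries, total RNA, horizontal log axis) and 24 h (4 libraries, polyadenylated RNA, vertical log axis). RLTR13D3A1, at 0.325% and 2.97%, stands apart from the other RLTR13 rows.

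Genes that silence retrotransposons, listed with Tet1, Tet2 and Tet3, which act against DNA methylation, were mostly outside the 46 day table. Of 55 genes, 6 were tested at 46 days and 33 at 24 h, and the edgeR quasi-likelihood test called 0 at either time. At an unadjusted p under 0.05 it had 0 of 6 at 46 days, against 1.05% of all rows lower and 4.26% higher. At 24 h it had 1 of 33, lower in TESA, against 1.75% of all rows lower and 0.953% higher. That gene was Tet2, which oxidises methylated cytosine and so starts its removal and is not itself a silencer, at 3.00 ± 1.06 CPM in TESA and 11.7 ± 7.40 CPM in CTRL libraries at 24 h (SD, n = 4 each). Trim28, the co-repressor recruited by KRAB zinc finger proteins, was at 26.2 ± 3.38 CPM in TESA and 25.1 ± 3.13 CPM in CTRL libraries at 24 h. Zfp809, a KRAB zinc finger protein that binds retroviral sequence, was at 3.53 ± 0.622 CPM in TESA and 5.70 ± 1.21 CPM in CTRL libraries. Genes of KRAB zinc finger silencing and histone H3 lysine 9 methylation had a median log2 fold change of -0.02 over 15 tested at 24 h, with 9 below 0. At 46 days this list had a median of 0.29 over 2 tested, with 1 below 0. Genes of the piRNA pathway had a median log2 fold change of 0.03 over 4 tested at 46 days and -0.16 over 13 at 24 h. The DNA methylation list, which holds the Tet genes, had a median of 0.06 over 5 tested at 24 h, with 2 below 0. Trim28 and Zfp809 were named after the lists were seen.

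In the sperm libraries analysed here no RLTR family could be told apart between TESA and CTRL males at either time after adjustment. RLTR fold changes at 46 days were mostly below 0 with TMM over all rows, and their size depended on scaling and on single libraries. Most other repeat rows were below 0 as well, but their summed level had a higher median in TESA than in CTRL libraries. RLTR families with few counts, among them most RLTR13 rows at 24 h, had wide errors. Differences between the times cannot be told apart from differences between total and polyadenylated RNA. Which genomic copies the RLTR counts came from, and whether other cells or DNA contributed, was not tested.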

How the data were processed

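The deposited values are estimated counts per gene or repeat family, which the authors made with Salmon 0.11.2 after Trim Galore 1.16, per the submitters' processing notes. The estimated counts were rounded to whole numbers, and reads shared by families are split by estimation. Rows exceeding 20 counts in 6 or more (46 days) or 4 or more libraries (24 h) were tested on the whole table with edgeR 4.0.16 in R 4.3.3 (TMM, quasi-likelihood test, Benjamini-Hochberg adjustment over all rows tested, threshold 0.05). The interaction was fitted over all 22 sperm libraries, with TMM over the rows in both tables. DESeq2 1.42.0, other scalings, filters, a term for libraries 11 to 14, and leaving out each library were alternatives. The fits were tested on simulated data. Named rows were those past the threshold, the 5 with the smallest p in each comparison, all RLTR13 rows, the 5 solo LTR and 5 -int rows with the highest mean CPM in each table, and RLTR9A3 and RLTR26D_MM. The members and lists were chosen with earlier results of these data known. The labels do not say whether each library is 1 animal, so p-values measure the spread between libraries. No pair of libraries in a group held identical values. Serum small RNA was not used here.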

Additional observations from a re-analysis of the deposited data

Results flagged for a closer look

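In each group the highest and lowest library were compared with the nearest other library by Dixon's 95% critical value. Chance alone marks about 1 in 20 groups in this way, and 9 of 174 groups of values were marked. At 46 days RLTR rows held 0.439% of counts in TESA library 11, against 0.161% in the next highest TESA library. RLTR13D3 was at 19.0 CPM in TESA library 12, against 7.65 CPM in the next. At 24 h -int rows held 8.30% of RLTR counts in TESA library 3, against 5.54% in the next. RLTR21 was at 1.82 CPM in TESA library 5, below 4.50 CPM in the next lowest, and at 9.62 CPM in CTRL library 4, above 7.79 CPM in the next highest. RLTR13A was at 1.67 CPM in TESA library 7, against 0.247 CPM in the next. RLTR13C1 was at 0.925 CPM in TESA library 1 and at 0 in the other TESA libraries. RLTR20B3 was at 17.1 CPM in TESA library 1, against 5.62 CPM in the next. RLTR13D6 was at 6.35 CPM in CTRL library 2, against 1.89 CPM in the next. What set these libraries apart was not tested.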

How the results depend on the processing

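Under every alternative run, 0 RLTR rows passed the adjusted threshold in the 46 day comparison, the 24 h comparison and the difference between them. At 46 days the RLTR median log2 fold change was -1.77 with library totals, and with TMM over repeat rows the -int median was 0.0337. At 24 h the RLTR median was -0.0265 with library totals and 0.0463 with TMM over repeat rows, and the solo LTR median was 0.0535 with the latter. With TMM over repeat rows at 46 days RLTR13A was at 0.0921, RLTR13A2 was at 0.14, RLTR13A3 was at 0.15, RLTR13B2 was at 0.00985, RLTR13C3 was at 0.13, RLTR13D3 was at 0.00721, RLTR13D4 was at 0.11, RLTR51A_Mm was at 0.27, RLTR20A4 was at 0.18, RLTR10 was at 0.0801, RLTR1B-int was at 0.12, RLTR45-int was at 0.14, RLTR14-int was at 0.00680. RLTR20A4 was at 0.00415 with DESeq2 size factors and 0.00252 with DESeq2. RLTR31D_MM was at -1.41 with library totals and -0.0552 without libraries 2 and 12, an alternative chosen after seeing the data. At 24 h RLTR13B2 was at 0.0891 with library totals and 0.12 with TMM over repeat rows, RLTR9D at 0.17 and 0.29, and with the latter RLTR13D1 at 0.00596 and RLTR13G at 0.12. The cause was not tested. Leaving out 1 library at a time gave RLTR medians of -0.48 to -0.17 at 46 days and -0.39 to -0.24 at 24 h, and 0 RLTR rows called each time. These log2 fold changes changed sign among the leave-one-out fits at 46 days, with ranges RLTR13A -0.58 to 0.0264, RLTR13A3 -0.71 to 0.0631, RLTR13C3 -0.44 to 0.0920, RLTR20A4 -0.29 to 0.14, RLTR31D_MM -0.0142 to 0.48, RLTR51A_Mm -0.16 to 0.0302. At 24 h the ranges were RLTR10-int -0.16 to 0.27, RLTR10C -0.31 to 0.36, RLTR11A -0.0871 to 0.30, RLTR13B2 -0.52 to 0.51, RLTR13D1 -0.72 to 0.12, RLTR13D3A1 -0.15 to 0.28, RLTR13D6 -0.74 to 0.34, RLTR13G -0.58 to 0.25, RLTR1B-int -0.13 to 0.20, RLTR31D_MM -0.0313 to 0.21, RLTR9D -0.22 to 0.12. Without a change of sign, values moved over 1.5 times at 46 days for RLTR10 -0.36 to -0.0855, RLTR10B -0.85 to -0.38, RLTR11B -0.56 to -0.21, RLTR13A2 -0.36 to -0.0564, RLTR13B1 -0.43 to -0.0693, RLTR13B2 -0.63 to -0.22, RLTR13C1 -0.56 to -0.24, RLTR13C2 -0.47 to -0.17, RLTR13D2 -0.78 to -0.35, RLTR13D3 -0.80 to -0.0460, RLTR13D3A1 -1.11 to -0.21, RLTR13D4 -0.46 to -0.0740, RLTR13D5 -0.43 to -0.0776, RLTR13D6 -0.55 to -0.22, RLTR13E -0.57 to -0.26, RLTR14-int -0.50 to -0.0823, RLTR17B_Mm -0.51 to -0.0814, RLTR1B-int -0.31 to -0.0358, RLTR1D2_MM -1.07 to -0.45, RLTR20B3 -0.69 to -0.28, RLTR44-int -0.57 to -0.19, RLTR45-int -0.37 to -0.10, and at 24 h for RLTR10B 0.17 to 0.94, RLTR11B 0.0466 to 0.53, RLTR13A2 -1.37 to -0.28, RLTR13B1 -1.14 to -0.0664, RLTR13B4 -1.03 to -0.0389, RLTR13D3 -1.15 to -0.40, RLTR13D5 -1.21 to -0.45, RLTR14-int -1.46 to -0.27, RLTR19-int -0.58 to -0.24, RLTR1D2_MM 0.52 to 1.26, RLTR20B3 0.0237 to 1.11, RLTR26D_MM -1.53 to -0.0470, RLTR3_Mm 0.0375 to 0.39, RLTR9A3 -1.67 to -0.68. The RLTR median at 46 days was -0.33 with a term for libraries 11 to 14, -0.31 in libraries 1 to 10 and -0.52 without libraries 2 and 12. At an unadjusted p under 0.05 there were at 46 days 17 RLTR rows lower and 0 higher without libraries 2 and 12 (11.6%, against 2.59% of all rows lower), 36 lower and 0 higher with library totals (25.2%, against 6.98%), and 1 lower and 2 higher with TMM over repeat rows, against 0.279% and 8.51% of all rows. At 24 h there were 0 RLTR rows in either direction with library totals, against 0.225% of all rows lower and 0.873% higher, 0 with TMM over repeat rows, against 0.225% and 6.46%, and 6 lower when repeat rows were fitted alone, against 11.8% of all repeat rows. No paired analysis was possible because the groups compared share no replicate numbers.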
